A study of Mus musculus with 2 samples.

Results

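Antioxidant and glutathione enzymes, 10 genes in all, were followed across the cell types of the mouse ciliary body. They were 2 enzymes that cells secrete (Gpx3, Sod3), the intracellular peroxidases Gpx1 and Gpx4, the cytosolic dismutase Sod1, the peroxisomal catalase Cat, the glutathione transferases Gstm1, Gsta3 and Gsta4, and Gclc, the catalytic subunit that starts glutathione synthesis. Members were taken by gene symbol, and all 10 were found among the 33456 genes of the deposited tables. Eyes were taken on postnatal day 35 from C57BL/6 wild-type animals, and the cells came from tissue that the labels call ciliary epithelium, with no allele, agent or treatment named for either library. Each of the 2 libraries is a pool of eyes dissociated with collagenase and sequenced as single cells in droplets. Library 1 was made from 3 sets of eyes, and the labels give both 3 and 4 sets for library 2. The 2 libraries are replicates of 1 group, so the comparisons run between cell types, and each value is given for both pools.

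Reactive oxygen is removed in steps. Superoxide dismutases turn superoxide into hydrogen peroxide, which catalase and the glutathione peroxidases then reduce to water. Peroxidases of this family spend glutathione, a tripeptide made in the cytosol whose slow step is run by the glutamate-cysteine ligase subunit Gclc. Glutathione transferases join the same tripeptide to reactive electrophiles. Gpx3 and Sod3 work outside the cell, in fluid and matrix. The ciliary body, a ring of tissue behind the iris, carries a double epithelium that secretes the aqueous humour bathing the lens and cornea: an inner non-pigmented layer faces the fluid and an outer pigmented layer faces the stroma.

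The 2 libraries held 4764 and 6220 barcodes with 22510387 and 30683405 unique molecular identifiers (UMIs, each a counted transcript), and 3865 and 5466 cells were kept. Cells were clustered on genes that did not include the 10 members, and clusters were named from marker genes. That gave 18 classes with enough cells in both libraries, 17 of them named. Non-pigmented epithelium had 142 and 152 cells (3.67% and 2.78%) and pigmented ciliary or iris epithelium 136 and 209 (3.52% and 3.82%), so most cells under the tissue label were of other types. The pigmented class is called the pigmented layer, pigmented ciliary layer or ciliary sheet below. Its markers did not separate iris from ciliary cells, so it may hold both. Rods made up 9.81% of library 1 and 32.1% of library 2. Best2, a marker of non-pigmented epithelium, had 205 and 209 CPM (counts per 1000000 UMIs of the class) there and at most 11.4 in any other class. Six6, another of its markers, was less specific, with 195 and 186 CPM there, 336 and 184 in Muller glia and 226 and 160 in amacrine cells. A class with Tagln, Acta2 and Myl9 among its leading genes reached no name and is called unnamed class 1. The libraries shared 11 barcodes, 8 among kept cells, of which 1 had the same class in both.

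Promoter windows of 250 bases before the RefSeq start (GRCm38.p6) were at hand for 7 of the 10 members. They were searched on both strands for the core of the antioxidant response element, the site of the NRF2 transcription factor, spelled TGACNNNGC. Of 32851 windows of all genes, 10.2% held it, and 2 of the 11 windows of members did, those of Sod1 and Gsta3. A window of Gsta3 and the first of 2 of Gstm1 are shown because these 2 transferases differed in opposite directions between the ciliary epithelial layers. Gsta3 lies at chr1:21240335-21240584 on the plus strand, and capitals mark the core. The Gstm1 window shown lies at chr3:108017974-108018223 on the minus strand. Neither Gstm1 window holds a match, which says only that these letters are not in them.
Gsta3: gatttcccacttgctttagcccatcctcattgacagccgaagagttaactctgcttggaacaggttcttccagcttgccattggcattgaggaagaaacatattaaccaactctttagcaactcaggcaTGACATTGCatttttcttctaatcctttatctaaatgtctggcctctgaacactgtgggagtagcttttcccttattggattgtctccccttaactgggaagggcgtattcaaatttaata
Gstm1: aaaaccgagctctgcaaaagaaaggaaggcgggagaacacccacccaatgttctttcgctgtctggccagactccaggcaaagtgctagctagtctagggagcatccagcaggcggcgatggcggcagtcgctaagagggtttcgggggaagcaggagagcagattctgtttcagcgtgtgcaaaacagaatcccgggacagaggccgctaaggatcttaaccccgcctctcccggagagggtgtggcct

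**Figure D1:**
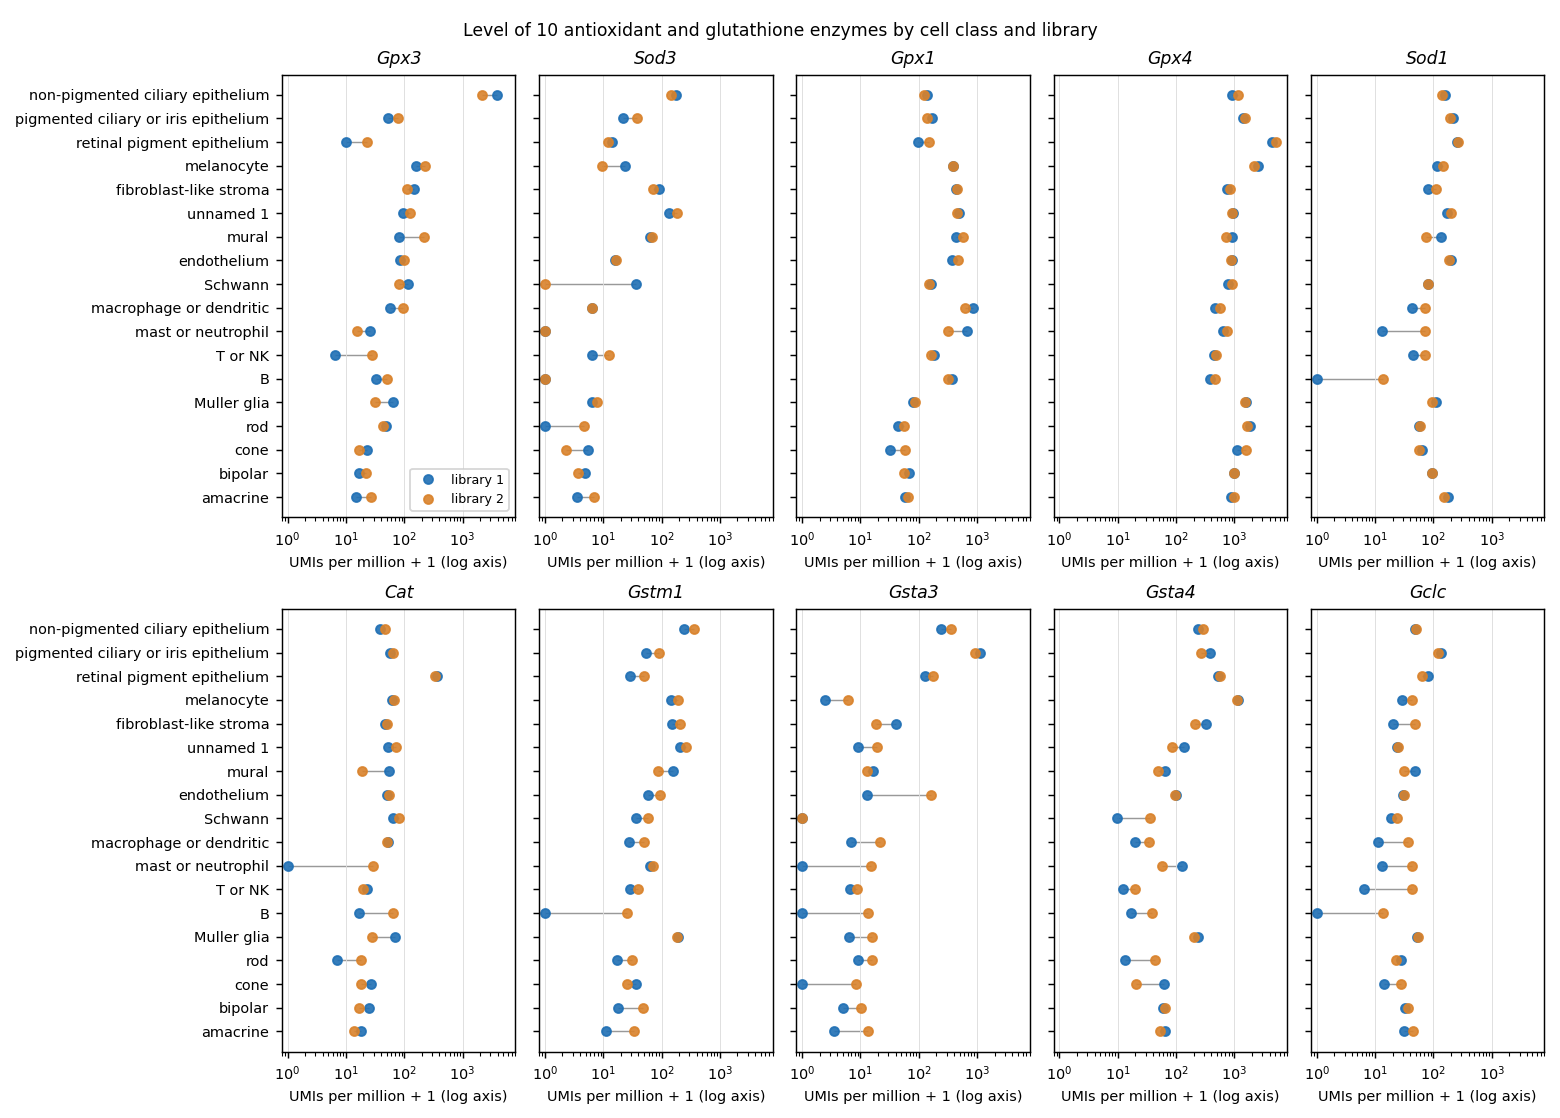
Level of each of the 10 genes in 18 cell classes, in CPM plus 1 on a log axis. Each point is 1 library and each grey line joins the 2 libraries of a class. Gpx3 stands at 3891 and 2133 in non-pigmented epithelium, to the right of every other class, while Gpx4 is at 386 or more in all 18 classes.

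Gpx3 was far higher in the non-pigmented epithelium than in any other class. The gene (chromosome 11, bases 54902453 to 54910377, plus strand, GRCm38) encodes the peroxidase found in plasma. Its level there was 3891 CPM in library 1 and 2133 CPM in library 2, and the mean of the 2 was 15.8 times that of the next class, melanocytes, with 157 and 224 CPM. These cells held 65.0% and 57.3% of all Gpx3 UMIs of the libraries while making up 3.67% and 2.78% of the cells. The ranges of these classes did not overlap. Below the melanocytes, mural cells had 81.0 and 218 CPM, fibroblast-like stroma 144 and 111, unnamed class 1 94.9 and 126, Schwann cells 116 and 80.7 and endothelium 83.6 and 99.8, and each of these overlapped its neighbour in the order. All 13 Schwann cell UMIs of library 1 came from 1 of 41 cells, and library 2 had 7 UMIs. Of the 36 mural UMIs of library 2, 5 cells held 75.0%. The pigmented class, which takes in the layer adjoining the non-pigmented one and perhaps iris cells, had 51.1 and 78.3 CPM. Lowest were T or NK cells, with 5.53 and 26.6 CPM, and retinal pigment epithelium, with 9.18 and 22.2 CPM.

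Most non-pigmented cells carried Gpx3. A UMI of it was seen in 120 of 142 and 120 of 152 of them, with medians of 9 and 3 UMIs per cell, and the 5 cells with the most held 29.1% and 24.3% of the class total. After each cell was thinned to 1000 UMIs, 76.4% and 61.5% of non-pigmented cells had a Gpx3 UMI (84.5% and 78.9% unthinned). The thinned share was 3.20% and 10.2% in the pigmented layer (11.8% and 22.5% unthinned). In lymphocytes, taken as types that should lack the gene, it was 0 of 56 T or NK cells, which allows up to 5.36%, and 1.49% (1.75% and 5.97% unthinned), and 4.17% and 9.68% of B cells (7.69% and 9.68% unthinned). The share in the pigmented layer was close to that in B cells, of which 24 and 31 were thinned. It was above the observed share in T or NK cells, and whether it exceeds background was not tested. Thinning left out 15 and 22 non-pigmented cells, 11 and 33 pigmented cells, 1 and 0 T or NK cells and 2 and 0 B cells. Median depth before thinning was 3303 and 2590 UMIs in non-pigmented cells, 4922 and 4061 in pigmented cells, 2431 and 3693 in T or NK cells and 1936 and 2451 in B cells. What part of the Gpx3 counted outside the non-pigmented layer is free RNA was not tested.

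Sod3, the extracellular dismutase that binds matrix (chromosome 5, bases 52363791 to 52371418, plus strand), was spread over more classes. Non-pigmented epithelium had 178 and 147 CPM and unnamed class 1 had 132 and 180, so the order of these classes changed between the libraries and their ranges overlapped. Fibroblast-like stroma followed with 91.1 and 70.3 CPM and mural cells with 62.3 and 66.7, and the range of each lay below that of the class before it. The pigmented layer had 21.3 and 37.3 CPM, and retinal pigment epithelium 13.4 and 11.1. Retinal neurons, Muller glia, macrophages and T or NK cells lay between 0 and 11.4 CPM. No Sod3 UMI was counted in B cells or in mast cells or neutrophils, where 3 UMIs would be 48.3 and 37.3 CPM and 36.9 and 42.8 CPM. Non-pigmented epithelium held 14.5% and 23.9% of all Sod3 UMIs, less than its share of Gpx3 UMIs.

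Within each enzyme family the share of the secreted form was then taken, a ratio free of the scaling between libraries. Gpx3 made up 79.1% (exact Clopper-Pearson 95% interval 77.9 to 80.3) and 62.9% (61.2 to 64.5) of the Gpx1, Gpx3 and Gpx4 UMIs of non-pigmented epithelium. In the other 17 classes its share was between 0.204% and 14.5%, the lower value in retinal pigment epithelium and the higher in mural cells of library 2. Of the 36 Gpx3 UMIs of those mural cells, 5 cells held 75.0%. The pigmented layer had 3.13% (2.31 to 4.12) and 4.50% (3.69 to 5.42). Sod3 made up 52.8% (47.0 to 58.5) and 51.6% (45.6 to 57.5) of the Sod1 and Sod3 UMIs of non-pigmented epithelium. Its share was also large in fibroblast-like stroma, at 52.8% (49.8 to 55.9) and 38.6% (35.0 to 42.3), in unnamed class 1, at 44.0% and 47.6%, and in mural cells, at 31.7% and 47.8%. In the pigmented layer it was 8.93% (5.54 to 13.4) and 16.3% (12.3 to 20.9). The intervals cover counting error only, and for Gpx3 the 2 pools of the non-pigmented class lie further apart than their intervals. CPM values are not per transcript length, so levels are compared between classes for a gene and not between genes.

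**Figure D2:**
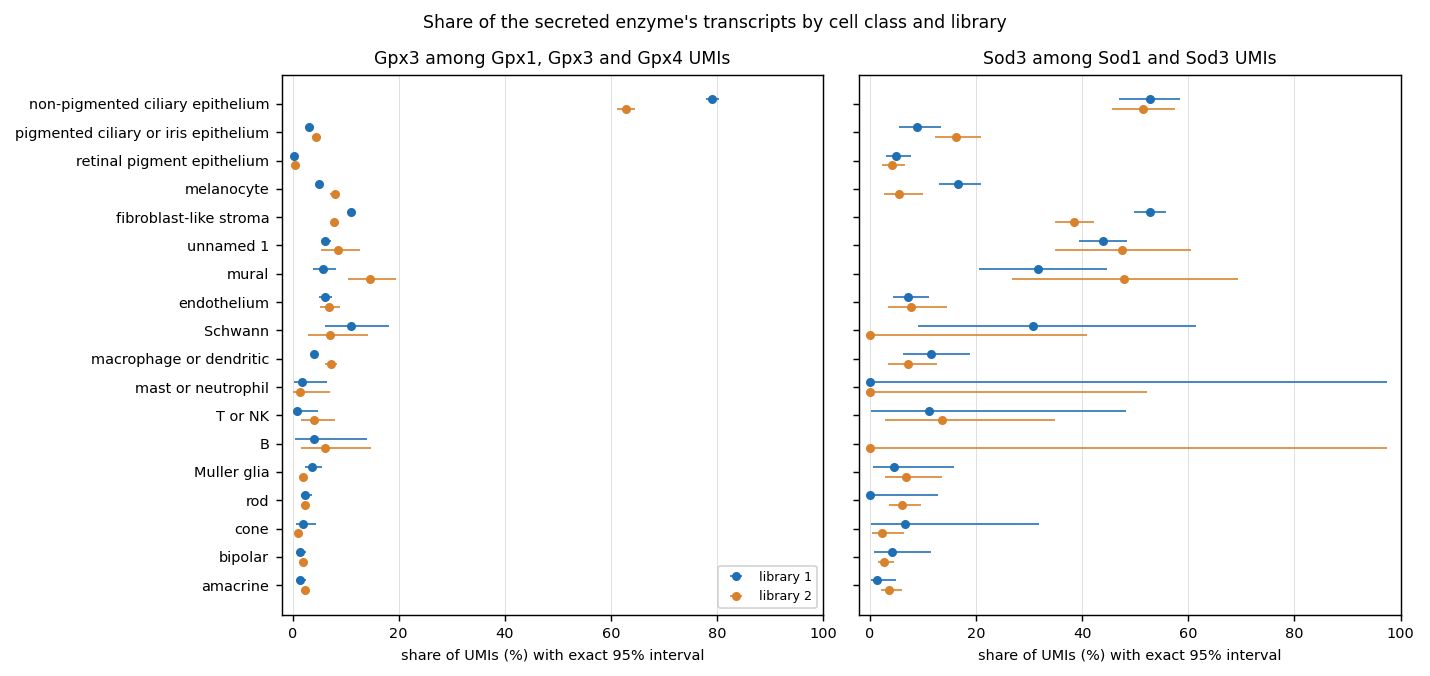
Share of Gpx3 among Gpx1, Gpx3 and Gpx4 UMIs (left) and of Sod3 among Sod1 and Sod3 UMIs (right), in percent, by cell class. Points are libraries and bars exact 95% intervals of counting error, and B cells of library 1, with no UMI of either dismutase, have no point on the right. Gpx3 is at most 14.5% outside the non-pigmented epithelium, while Sod3 is at 52.8% and 51.6% in non-pigmented epithelium and between 31.7% and 52.8% in fibroblast-like stroma, unnamed class 1 and mural cells.

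The intracellular peroxidases followed other cells. Gpx1 (chromosome 9, bases 108338903 to 108340343, plus strand), the general cytosolic and mitochondrial form, was highest in macrophages or dendritic cells, at 846 and 629 CPM. Mural cells had 436 and 570 CPM, mast cells or neutrophils 677 and 314, and fibroblast-like stroma 438 and 459. The epithelia lay well below these, with 135 and 122 CPM in the non-pigmented layer, 170 and 136 in the pigmented layer and 96.7 and 149 in retinal pigment epithelium. Retinal neurons were lowest, cones at 30.9 and 57.1 CPM. Blood-derived and stromal classes thus headed the Gpx1 order, and its neighbours overlapped in 10 of 17 steps.

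Gpx4 (chromosome 10, bases 80047166 to 80056439, plus strand), which reduces lipid peroxides in membranes, was detected in all 18 classes. Retinal pigment epithelium had 4387 and 5233 CPM and melanocytes 2574 and 2200, and each range stood apart from the class below it. Rods followed with 1856 and 1664 CPM, then Muller glia with 1572 and 1496 and the pigmented ciliary layer with 1412 and 1527. The non-pigmented layer had 893 and 1139 CPM and B cells, the lowest, 386 and 460. The top class was 5.18 times the median class for Gpx4, against 53.7 times for Gpx3.

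Sod1 (chromosome 16, bases 90220754 to 90226329, plus strand), the copper-zinc enzyme of the cytosol, had a mean in its top class that was 2.59 times that of the median class. Retinal pigment epithelium had 254 and 260 CPM, the pigmented ciliary layer 217 and 192, endothelium 197 and 184, and the non-pigmented layer 159 and 138. The first of these ranges was apart from the next, and the others overlapped their neighbours. Sod1 overlaps Scaf4 on the opposite strand, and whether counting used strand is not given in the sources used here. Cat (chromosome 2, bases 103453849 to 103485160, minus strand) showed a sharp pattern: 359 and 332 CPM in retinal pigment epithelium against 62.2 and 80.7 in Schwann cells, the next class, a ratio of 4.83. The Schwann cell values rest on 7 UMIs in each library and overlapped those of melanocytes, 59.9 and 66.7 CPM, so that ratio is rough. The remaining classes lay between 0 and 71.9 CPM, the pigmented ciliary layer at 55.3 and 62.6 and the non-pigmented one at 36.8 and 45.1. Retinal pigment epithelium held 36.0% of all Cat UMIs in each library.

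The 3 transferases each had a different leading class. Gstm1, a mu-class enzyme (chromosome 3, bases 108012255 to 108017973, minus strand), had 246 and 360 CPM in the non-pigmented layer, overlapping the 208 and 258 of unnamed class 1. Muller glia had 189 and 181 CPM, fibroblast-like stroma 148 and 204 and melanocytes 147 and 187, while the pigmented layer had 52.2 and 91.0. Gsta3, an alpha-class enzyme (chromosome 1, bases 21240589 to 21265661, plus strand, overlapping Gm28836 on the other strand), was led by the pigmented layer, at 1129 and 903 CPM, 3.40 times the mean of the non-pigmented layer at 237 and 360. Retinal pigment epithelium had 128 and 175 CPM. Melanocytes, which share the pigment pathway, had 1.50 and 5.19 CPM, and Schwann cells had no Gsta3 UMI, where 3 UMIs would be 26.7 and 34.6 CPM. Endothelium had 11.8 CPM in library 1 and 159 in library 2, and 75 of the 83 UMIs of library 2 came from 1 cell.

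Gsta4 (chromosome 9, bases 78182774 to 78209349, plus strand), the alpha-class enzyme known for clearing 4-hydroxynonenal, a product of lipid peroxidation, was highest in melanocytes, at 1152 and 1097 CPM. Retinal pigment epithelium had 516 and 560 CPM, the pigmented ciliary layer 376 and 269 and the non-pigmented layer 235 and 291. In the pigmented layer of library 1, 5 cells held 52.7% of its 353 UMIs, against 24.1% in library 2. Gclc (chromosome 9, bases 77754535 to 77794485, plus strand) was highest in the pigmented layer, at 135 and 121 CPM, then in retinal pigment epithelium, at 81.2 and 61.9, in Muller glia, at 50.7 and 53.9, and in the non-pigmented layer, at 47.9 and 49.1. Those 4 classes had separate ranges, but Muller glia rest on 19 and 54 UMIs and the non-pigmented layer on 43 and 49. In the latter, 5 cells held 58.1% and 42.9% of the UMIs, so the order of the last pair is uncertain. Most classes below overlapped their neighbours, down to B cells with 0 and 12.4 CPM. Transferase genes of a subfamily resemble each other in sequence, and reads shared between them could have been split or dropped by the counting, so the levels of Gstm1, Gsta3 and Gsta4 are uncertain to that extent.

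Of 7092 genes kept out of the clustering and tested, 87.1% differed among the 18 classes in edgeR's quasi-likelihood test (Benjamini-Hochberg adjusted p under 0.05), and all 10 members were among them. The share is so high that this says little of the members. Adjusted p-values ran from 1.15e-18 for Gpx3 to 1.37e-06 for Gclc. The closer questions were put to pairs of classes, where a gene was called at an adjusted p under 0.05 and a log2 fold change of at least 1 either way. Each library is 1 pool, and library is a block in the model, which takes out the common difference between the pools. The p-values are set against how differences between classes vary between these 2 pools, a spread shared over all 18 classes. Spread between animals is not measured.

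Between the 2 ciliary layers, both secreted enzymes and Gstm1 were higher in the non-pigmented epithelium, and Gsta3 and Gclc were lower. The question is how the fluid-facing layer differs from the pigmented class, which may hold iris cells beside those of its partner layer. Gpx3 was higher by 5.59 ± 0.44 on the log2 scale (SE, adjusted p = 1.48e-10), from 51.1 and 78.3 CPM in the pigmented layer to 3891 and 2133. Sod3 was higher by 2.43 ± 0.38 (adjusted p = 5.20e-05), and Gstm1 by 2.10 ± 0.34 (adjusted p = 7.98e-05). Called genes made up 6.88% of all genes tested (4.08% higher, 2.81% lower) and 5 of the 10 members. The 3 higher members had ranges that did not overlap between the layers. They were picked by their calls, and the share of all tested genes with such ranges was not taken, so this adds no support.

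Gsta3 fell by 1.87 ± 0.51 (adjusted p = 0.0177), from 1129 and 903 CPM in the pigmented layer to 237 and 360, and Gclc fell by 1.40 ± 0.37 (adjusted p = 0.0141), from 135 and 121 CPM to 47.9 and 49.1. These 2 were the members called lower, and their ranges did not overlap either, which likewise adds no support to the calls. Gpx1, Gpx4, Sod1, Cat and Gsta4 were not called, with log2 differences between -0.53 and -0.24 and adjusted p-values of 0.218 to 0.810. Both lower calls depended on the model. With no library block in the model, Gsta3 had an adjusted p of 0.170 and Gclc of 0.0638, and DESeq2 gave Gsta3 0.136. The library block is kept because all sums of a library come from the same pool of eyes.

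**Figure D3:**
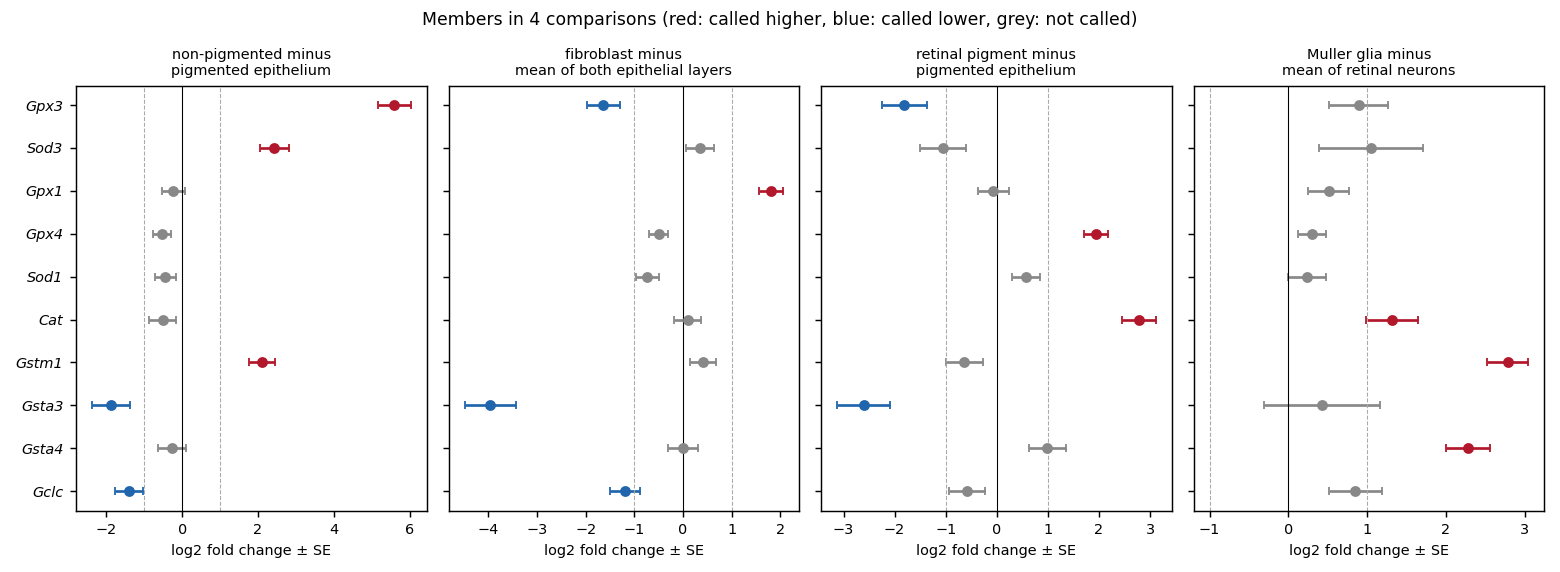
Log2 fold change with its standard error for the 10 genes in 4 comparisons of cell classes (edgeR). Red and blue points were called higher and lower, grey points were not called, and dashed lines mark a log2 change of 1. Gpx3 is at 5.59 in the first panel and at -1.64 and -1.81 in the next 2, and no member was called lower in Muller glia.

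The markers did not separate ciliary from iris cells within the pigmented class. Myh11, a smooth muscle myosin gene, had 318 and 213 CPM there and at most 27.0 in the non-pigmented layer, and a UMI of it was seen in 61 of 136 and 53 of 209 pigmented cells. Gsta3 had 1280 and 968 CPM in cells with a Myh11 UMI and 943 and 852 in those without, and Gclc 160 and 137 against 105 and 108. Without the Myh11-positive cells Gclc differed by -1.08 between the layers and was not called (adjusted p = 0.108), while Gsta3 was called. The 7 smooth muscle markers summed to 1011 and 934 CPM in the pigmented layer and to 379 and 105 in the non-pigmented layer, with 2 of the 7 at 0 in each library of each. Markers of corneal or conjunctival epithelium summed to 588 CPM in the pigmented layer of library 1 and to 2.98 in library 2. The median mitochondrial share per cell, a sign of RNA quality, was 12.1% and 11.1% in the non-pigmented and 13.7% and 14.8% in the pigmented layer. The part of all these in the results was not tested.

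Gsta3 in the non-pigmented class came from a minority of its cells, and those cells carried pigment genes. A Gsta3 UMI was seen in 36 of 142 and 33 of 152 non-pigmented cells, against 121 of 136 and 159 of 209 pigmented ones, and 5 cells held 58.7% and 58.1% of the class total. Non-pigmented cells with a Gsta3 UMI had 8199 and 8312 CPM of Dct, a melanin enzyme, and those without had 389 and 253. Pmel, the fibril protein of melanosomes, had 1435 and 1650 CPM against 28.4 and 75.6. Depth differed as well: the median cell with a Gsta3 UMI had 5136 and 8571 UMIs and the median cell without one 2597 and 1915. A deeper cell is more likely to show a UMI of any gene.

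Other members differed between these 2 sets of non-pigmented cells as well. Gclc had 74.4 and 69.1 CPM in cells with a Gsta3 UMI and 26.3 and 25.9 in those without, both in the direction of the pigmented layer. Gstm1 had 107 and 284 CPM against 361 and 449, likewise toward the pigmented layer. Gpx3 had 5064 and 1592 CPM against 2932 and 2759, so the libraries went opposite ways. Of the markers of non-pigmented epithelium, Best2 had 203 and 185 CPM against 207 and 238. Six6 had 84.3 and 134 against 286 and 246, and Wfdc1 44.6 and 103 against 845 and 372, both lower in each library. These sets were made from a member's own counts, so the values are a description with no test. When cells were instead left out by pigment genes, at 20 or more Dct and Pmel UMIs per 10000 (26 and 28 cells, with 15 and 24 cells of the class between 10 and 40), Gsta3 differed between the layers by -4.64 (adjusted p = 2.83e-06) and Gclc by -2.23 (adjusted p = 3.41e-04). Gpx3 differed by 5.58 in that fit. The filter took cells from the non-pigmented side only, after the data were seen. Cells with a Gsta3 UMI were high in Dct, Pmel and Gclc, so wider differences of Gsta3 and Gclc were built in. The p-values of that fit add no support to the lower calls. Over the whole class the 17 markers of pigmented epithelium summed to 8478 and 9408 CPM in the non-pigmented and to 31472 and 30569 in the pigmented layer, none of them at 0.

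**Figure D4:**
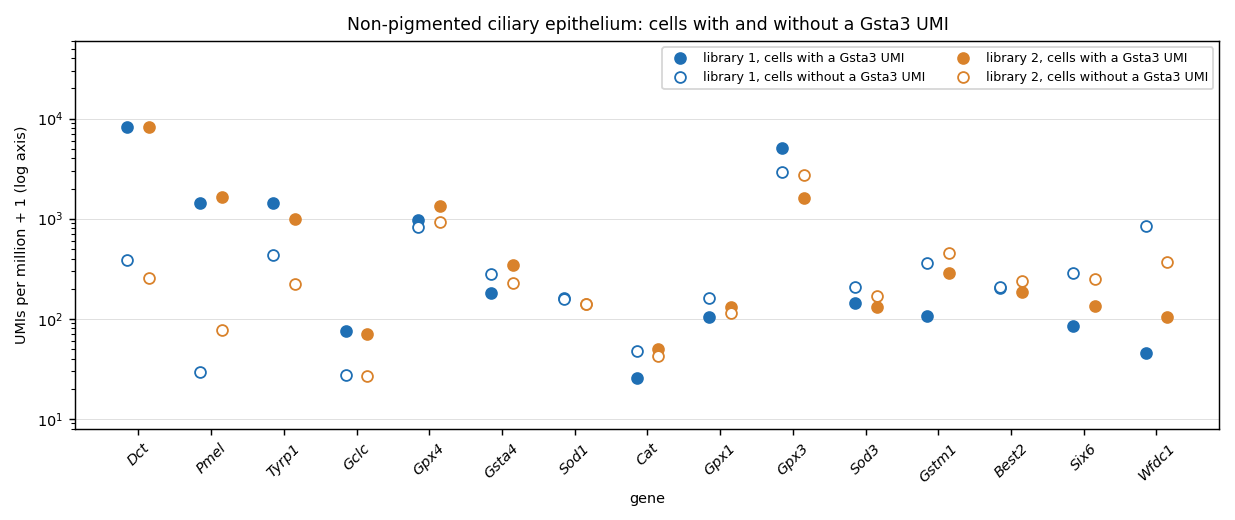
Level of pigment genes (Dct, Pmel, Tyrp1), 9 members and markers of the non-pigmented layer (Best2, Six6, Wfdc1) in non-pigmented cells with (filled) and without (open) a Gsta3 UMI, in CPM plus 1 on a log axis. Colours are libraries. Dct is at 8199 and 8312 in filled points and at 389 and 253 in open ones, Gclc is higher and Gstm1 lower in filled points of both libraries.

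Stroma was set against the epithelium next. Its median mitochondrial share, 4.01% and 5.47% per cell, was below that of both ciliary layers, and the part of that in the results was not tested. Compared with the mean of both ciliary layers on the log scale, fibroblast-like cells were higher in Gpx1 and lower in Gsta3, Gpx3 and Gclc. Gpx1 was higher by 1.81 ± 0.25 (SE, edgeR adjusted p = 4.65e-07), with 438 and 459 CPM. Gsta3 fell by 3.96 ± 0.53 (adjusted p = 4.35e-07), to 39.3 and 17.2 CPM, and Gpx3 by 1.64 ± 0.34 (adjusted p = 2.44e-04), to 144 and 111 CPM. The fibroblast level of Gpx3 nevertheless lay above that of the pigmented layer alone. Gclc fell by 1.19 ± 0.32 (adjusted p = 0.00339), with 19.1 and 47.9 CPM in the 2 libraries. Taken within 1 library, its difference was -1.81 in library 1 and -0.60 in library 2. The call was lost without cells of high UMI count (adjusted p = 0.111), without Myh11-positive pigmented cells, where the change fell just short of the fold limit (adjusted p = 0.0150), and without pigment-rich non-pigmented cells (adjusted p = 0.0927).

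Sod3 had no called difference between stroma and epithelium, at 0.34 ± 0.29 (adjusted p = 0.415), while Gpx3 was called lower. The 2 secreted enzymes were not tested against each other. Sod1 was at -0.73 with an adjusted p of 0.0198, short of the fold limit. Called genes made up 24.1% of all genes tested (13.5% higher, 10.6% lower) and 4 of the 10 members (1 higher, 3 lower). Scaling by DESeq2 moved the median of all genes from 0.05 to -0.09, and relative to that median Gpx1 stood at 1.76 with TMM and 1.78 with DESeq2. The fibroblast-like class is made of 4 clusters that do not share members evenly. In the 3 clusters with more than a few cells in each library, Gpx3 was 232 and 283 CPM in that led by Chil1, Tnmd and Myoc, 113 and 121 in that led by Col3a1 and Col1a1, and 56.2 and 77.5 in the remaining one. A cluster led by Myoc and Ccl11 had 3 cells in library 1 and 249 in library 2, with Gclc at 56.2 CPM in the latter.

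The retinal pigment epithelium and the pigmented ciliary layer are continuous sheets of the same developmental origin. Between these classes, the latter of which may hold iris cells, 4 members differed. Cat was higher in the retinal sheet by 2.78 ± 0.33 (SE, edgeR adjusted p = 2.49e-07), with 359 and 332 CPM against 55.3 and 62.6. Gpx4 was higher by 1.95 ± 0.24 (adjusted p = 3.10e-07), with 4387 and 5233 CPM against 1412 and 1527. Gsta3 fell by 2.60 ± 0.52 (adjusted p = 5.78e-04), to 128 and 175 CPM, and Gpx3 by 1.81 ± 0.44 (adjusted p = 0.00393), to 9.18 and 22.2 CPM, which rest on 13 and 32 UMIs. On the pigmented ciliary side of Gpx3, 5 cells held 70.8% of 48 UMIs in library 1 and 42.9% of 105 in library 2. Whether Gpx3 exceeds background in that layer was not tested, as given above. All 4 members had ranges that did not overlap, but they were picked by their calls. The share of all tested genes with such ranges was not taken.

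Called genes were 11.2% of those tested in this comparison (5.54% higher, 5.68% lower), against 4 of the 10 members (2 each way). The median mitochondrial share per cell was 8.38% and 6.79% in retinal pigment epithelium, below the 13.7% and 14.8% of the ciliary sheet. The lower Gpx3 call was lost at a mitochondrial limit of 15% (adjusted p = 0.168) and without cells of high UMI count (adjusted p = 0.0503). Gsta4 was 0.99 ± 0.36 higher (adjusted p = 0.0704) and not called, but was called at the 15% limit, without high-UMI cells and with another gene split, at 1.39 to 1.47. The 10 markers of retinal pigment epithelium summed to 51337 and 58795 CPM in that class and to 9214 and 7205 in the ciliary one. Rpe65, which defines it, had 1995 and 1763 CPM against 7.45 and 5.22. Globin gene Hbb-bs had 42.4 CPM in retinal pigment epithelium of library 1 and 3497 in library 2, and the part of either in the results was not tested.

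Muller glia, the supporting cells of the retina, were compared with the mean of rods, cones, bipolar and amacrine cells of the same libraries. Gstm1 was higher in the glia by 2.79 ± 0.26 (SE, edgeR adjusted p = 4.15e-10), with 189 and 181 CPM where the neurons had 9.99 to 47.3. Gsta4 was higher by 2.28 ± 0.28 (adjusted p = 9.95e-08), with 238 and 203 CPM where the neurons had 12.3 to 64.2. Cat was higher by 1.31 ± 0.33 (adjusted p = 0.00364), with 69.4 CPM in library 1 but 26.9 in library 2, just above the 26.5 of library 1 cones. Higher calls were 13.0% of genes tested and 3 of the 10 members, and lower calls 4.67% and 0 members. All 10 members were above 0 here, with DESeq2 as well, so no limit on p could have called one lower.

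The remaining members of this comparison were all above 0 without a call: Gclc at 0.85 (adjusted p = 0.0668), Gpx3 at 0.89, Sod3 at 1.05, Gpx1 at 0.51, Gsta3 at 0.43, Gpx4 at 0.30 and Sod1 at 0.23. Under DESeq2 the median of all tested genes was 0.05 in place of -0.13, and the split of all calls was 1055 higher to 154 lower in place of 919 to 331. Relative to each median Gstm1 was at 2.92 and 2.94, Gsta4 at 2.41 and 2.38 and Cat at 1.45 and 1.46. The glial class also carried red cell markers, 5 genes that summed to 16404 and 6970 CPM with none at 0, and 8 rod markers summing to 4974 and 16144. The 18 markers of non-pigmented epithelium summed to 6384 and 4148 CPM in the glia, with 1 and 2 at 0, and to between 1272 and 1966 in the neurons. Best2 among them had 2.67 and 0 CPM in the glia. Six6 had 336 and 184 CPM there against 195 and 186 in non-pigmented epithelium, and Wfdc1 144 and 18.0 against 485 and 227. Among the 10 leading genes of the glial cluster, markers of Muller glia and of non-pigmented epithelium numbered 3 each, and the 9 glial markers summed to 30605 and 21190 CPM there against 19099 and 25336 in non-pigmented epithelium. The name of this class thus rests on a tie, and the part of these markers in the results was not tested.

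Across the 36 sums of class and library, log2 levels of some members ran together more than others. The points share libraries and depth, so the correlations are a description only. Sod1 and Gclc had the highest pair value (Pearson r = 0.83), the secreted Gpx3 and Sod3 had 0.68, and Gstm1 and Sod3 had 0.70. Gpx3 and Gpx4, peroxidases of different places, had 0.03, and Gpx1 and Gpx4 had -0.22. By the naming rule, the genes most like each member among those tested were Sned1 (0.76) and Cldn3 (0.75) for Gpx3, Rhoj (0.87) and Nfatc4 (0.86) for Sod3, and Swap70 and Myh9 (both 0.86) for Gpx1. For Gpx4 Gpr143 (0.80) was among them, for Sod1 they were H1f0 (0.91) and App (0.87), and for Cat Akr1a1 (0.77) and Sumf1 (0.76). Gstm1 was nearest to Ctdsp2 (0.86) and Pygb (0.85), Gsta3 to Cox8b (0.86) and Scgb1c1 (0.83), Gsta4 to Gstt3 (0.87) and Mgst1 (0.84), and Gclc to Gaa and Slc48a1 (both 0.86).

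A further 75 antioxidant genes in 8 lists were set beside the members, and 70 of them were tested. Between the ciliary layers 8 were higher and 4 lower in the non-pigmented epithelium (edgeR), with a median of -0.10 over the 70 against -0.01 over all genes. Over all genes 4.08% were higher and 2.81% lower. Of 17 transferases tested 5 were higher and 1 lower: Gstt1 was higher by 2.30, from 29.8 and 25.4 CPM to 133 and 136, Gstm2 by 1.98 and Gstm5 by 1.14. The others were Gstm7 and Gstk1, named after their values were seen, with 14 to 26 UMIs in a non-pigmented sum. Tkt, a pentose phosphate enzyme, was higher by 1.05. Lower were Me1, which makes NADPH, at -1.98, and Nqo1, a quinone reductase that NRF2 induces, at -1.45. The other 2 lower calls, looked at after their values were seen, were Gss, the last enzyme of glutathione synthesis, at -1.70, with 6 and 9 UMIs against 21 and 39 in the pigmented layer, and Gsto1. Of the 4008 Gsto1 UMIs of the pigmented layer in library 1, 3983 came from 3 cells, and library 2 had 6, so this call rests on those cells.

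**Figure D5:**
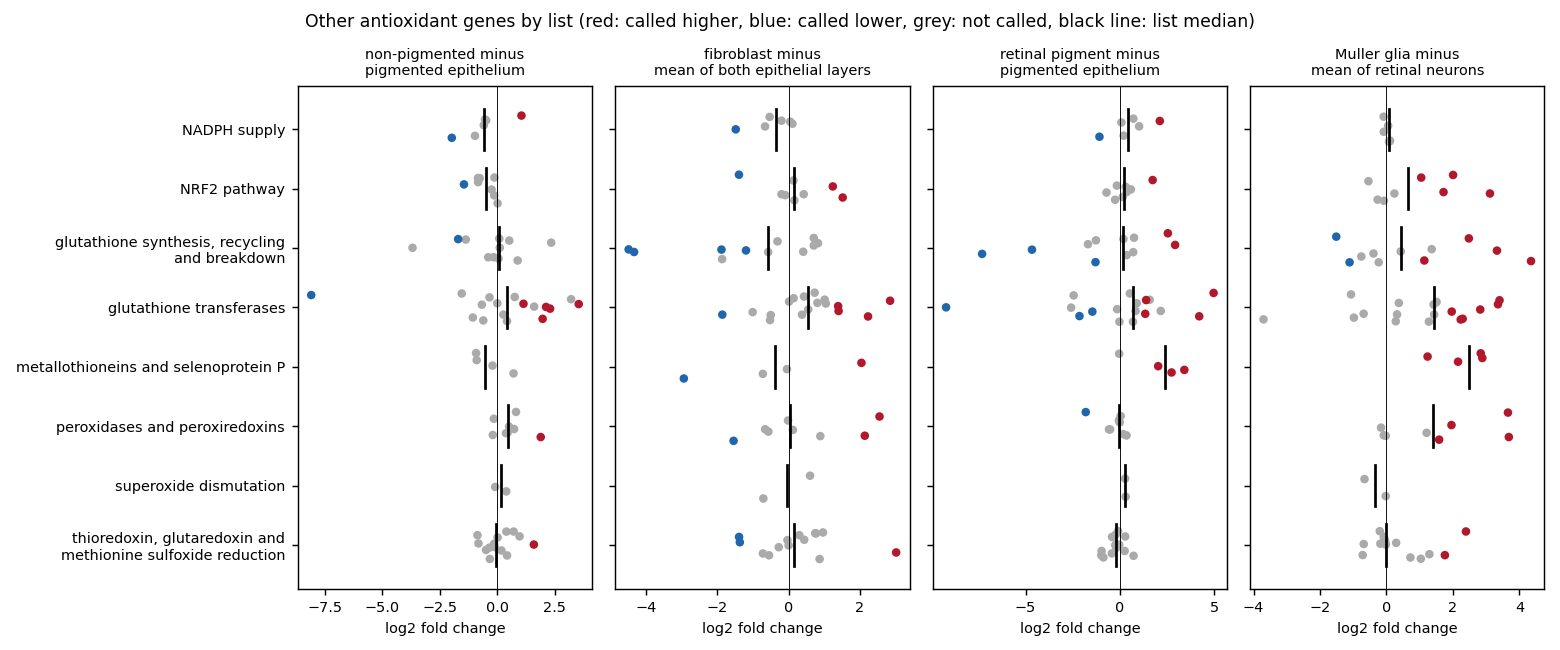
Log2 fold change of the other antioxidant genes by list in the same 4 comparisons (edgeR). Red and blue points were called higher and lower, grey points were not, and black lines are list medians. The 4 genes of the list of metallothioneins and selenoprotein P have a median of 2.38 between retinal pigment and pigmented ciliary epithelium and of 2.50 between Muller glia and neurons.

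Fibroblast-like cells had 10 of the 70 higher and 11 lower than the ciliary layers, where 13.5% and 10.6% of all genes were called, so the higher count is near the background. Txnip, which binds thioredoxin, was higher by 3.01, Gpx7 by 2.55, the secretory-pathway peroxiredoxin Prdx4 by 2.13, the selenium carrier Sepp1 by 2.04, Hmox1 by 1.51 and Gstp1 by 1.38. Hmox1 differed by 0.29 in library 1 and 2.17 in library 2. Of 11 genes of glutathione supply and breakdown 4 were lower and none higher, with a list median of -0.57: Ggt1, which splits glutathione at the cell surface, by -4.48, the cystine carrier Slc7a11 by -4.33 and Oplah by -1.88, with Gclm, the partner subunit of Gclc named after its value was seen, by -1.20. Mt3 (-2.94), Mgst1 (-1.86) and Prdx6 (-1.54) were lower too. Gclc and Gclm, whose products form a single enzyme, were both called lower.

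Retinal pigment epithelium differed from the pigmented ciliary layer in 11 genes higher and 8 lower of 70, where 5.54% of all genes were higher and 5.68% lower. The alpha-class transferases went apart: Gsta2 was higher by 4.97 and Gsta1 by 4.20, with 227 and 228 CPM of Gsta1 against 13.8 and 14.9, while the member Gsta3 was lower. Of 4 genes of the list of metallothioneins and selenoprotein P 3 were higher, among them Mt3 by 3.42 and Mt2 by 2.74. Ggt1 (2.93) and Chac2 (2.54), which break glutathione down, were higher, and Slc7a11 (-4.66), which brings in cystine for its synthesis, was lower, from 133 and 97.7 CPM to 4.94 and 2.78. Mgst1 (-2.14), Prdx4 (-1.81) and Oplah (-1.29) were lower as well. Gsto1 was called lower here too, on the same cells of library 1, and so was Chac1, which had 28 of its 29 pigmented-layer UMIs in 1 cell of library 1 and none in library 2.

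Muller glia were higher than neurons in 24 of the 70 and lower in 2, with a median of 0.35 against -0.13 over all genes. Of all genes, 13.0% were higher and 4.67% lower, a split that depends on the scaling as given above. Called higher were 6 of 17 transferases, 4 of 8 peroxidases and peroxiredoxins, 4 of 8 genes of the NRF2 list and 4 of 4 of the list of metallothioneins and selenoprotein P. Gpx8 was higher by 3.68, Prdx6 by 3.66, with 3120 and 1690 CPM against 186 and 227 in the neurons, Gstt1 by 3.40, Mt2 by 2.88, Mt1 by 2.84 and Mgst1 by 2.82. The lower ones were Ggt7 (-1.51) and Chac2 (-1.11). Of 6 genes of NADPH supply, none was called.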

How the data were processed

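Single-cell 3' libraries of 2 pools of eyes were read as raw counts: the authors deposited whole-number UMI counts per gene and barcode, made with Cell Ranger 3.1.0 per the file headers and aligned to mm10 per the submitters' processing notes, which also name CASAVA 1.8 and Seurat. Each library came with 2 matrices that differed in 0 entries. Whether counting used strand, and the annotation release, are not given in the sources used here. Of 33456 gene identifiers, 32655 were found in GENCODE release 21 for the positions.

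Barcodes were kept as cells from 500 genes upward and up to a mitochondrial share of 30%, which left a median of 4128 and 2968 UMIs per cell. A random part of the genes (16748, seed 1, all markers included) was clustered with scanpy 1.11.5 (Python 3.11.15, Leiden resolution 1, igraph 0.11.9, 30 principal components, no integration), and the other 16708, which held every member and listed gene, were kept for testing. Clusters were named from 221 markers of 32 cell types, by a rule written after the clusters were seen: a marker counted at a mean of 0.5 per 10000 UMIs and 4 times the median of the other clusters, 3 counting markers of a type were needed, and the lineage with the most markers among the 10 leading genes gave the name. A tie, as for Muller glia, went to the type with the larger share of its markers counting. No doublet caller was run and doublets were kept. Leaving out 858 cells above 3 times the median UMIs of their class and library was an alternative.

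UMIs were summed by class and library for classes with at least 20 cells in each, giving 36 sums. They were fitted with edgeR 4.0.16 (R 4.3.3, quasi-likelihood F test, TMM, filterByExpr, library as block, 17 residual degrees of freedom, 7092 genes), with Benjamini-Hochberg adjusted p-values over all genes tested. DESeq2 1.42.0 was an alternative, with no filter, no replicate block, 15% mitochondrial UMIs, resolution 2, another gene split and each library alone. Alternatives without Myh11-positive pigmented cells and without pigment-rich non-pigmented cells were added after seeing the data, as were those of the shares. On simulated data for the comparison of the layers (7092 genes), 62% of 100 genes changed 4-fold and 11% of 100 changed 2-fold were recovered. Of 75 calls, 2 were of unchanged genes. A 2-fold change lies at the fold limit of a call, so the 11% reflects that limit as well as the test. A missed call is thus common at small folds.

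The members and lists were chosen with earlier results of these data known. Besides members, listed genes were named if called, moving alike in each library and holding 50 or more UMIs on the higher side, up to 6 per direction, and the 2 genes nearest each member by Pearson r. Some items are not reported here. Intervals, and limits of 3 UMIs or cells for a count of 0, cover counting error only.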

Additional observations from a re-analysis of the deposited data

How the results depend on the processing

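Of 360 member values under an alternative with a test, 337 kept their direction and side of the threshold, 9 lost the call, 5 gained it and 9 changed sign, none of these called in either fit. Between the layers Gsta4 (-0.27) was 0.0863 at the 15% mitochondrial limit and 0.0944 with the other gene split. In fibroblasts Cat (0.10) was -0.0262 with DESeq2 and -0.0800 at the 15% limit, and Gsta4 (0.01) was -0.13 with DESeq2, -0.18 at the 15% limit and -0.14 without Myh11-positive cells. In retinal pigment epithelium Gpx1 (-0.07) was 0.0902 with the other gene split and 0.0511 without Myh11-positive cells. Members called lower between the ciliary layers numbered 2, against 1 with DESeq2, 0 with no replicate block (library as the paired unit left out) and 1 without Myh11-positive pigmented cells. Genes called there fell from 488 to 310 at the 15% mitochondrial limit. Members called lower in retinal pigment epithelium fell from 2 to 1 at that limit and without high-UMI cells. The Sod3 share in non-pigmented epithelium, 52.2% as the mean of both libraries, was 58.0% without high-UMI cells and 56.0% without pigment-rich cells. In the comparison of Muller glia with neurons, Gpx3 became called with DESeq2 (1.13, adjusted p = 0.0437) and Gclc without high-UMI cells (adjusted p = 0.0107). The causes were not tested. Within 1 library, a value with no test, 56 of 80 member values stayed within the standard error and 24 moved, and 5 of the 80, all uncalled, had the other sign. The highest class of 10 of 10 members was kept with means over cells and at the 15% limit, and of 9 at resolution 2. Low depth limits B cells, Schwann cells and mast cells or neutrophils, where 3 UMIs are 26.7 to 48.3 CPM.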

Other observations

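Cell types with too few cells for the tests also carried members. Retinal ganglion cells, 16 and 58 of them, had 254 and 187 CPM of Sod1 and 1101 and 1020 CPM of Gpx4, while Gpx3 had 3.73 and 11.2 CPM on 1 and 14 UMIs. Red cells, 3 and 8 of them, had 655 and 272 CPM of Gpx1 on 14 and 13 UMIs, and no UMI of Gpx3, Sod3, Gstm1 or Gclc was counted, where 3 UMIs would be 140 and 62.8 CPM.

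Members also differed inside classes, where the clusters were made from other genes. Among macrophages or dendritic cells, the cluster led by Cd74, H2-Eb1 and H2-Aa had 1279 and 1083 CPM of Gpx1, and the cluster led by C1qa, Pf4 and Ctss had 673 and 520. Gpx3 ran the other way, with 24.5 and 18.4 CPM in the first and 65.8 and 107 in the second. Among fibroblast-like cells, Gstm1 was lowest in the cluster led by Chil1, Tnmd and Myoc, at 60.2 and 97.5 CPM, against 220 and 242 in that led by Edn3 and Mgp and 194 and 209 in that led by Col3a1 and Col1a1. Gsta4 had 586 and 279 CPM in the last of these and 160 and 129 in the Edn3 cluster. These are levels by library with no test.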
